A study of Homo sapiens with 2 samples.

Results

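Natural antisense transcripts are long non-coding RNAs made from the DNA strand opposite to a neighbouring or overlapping gene, called the sense gene, and they carry that gene's symbol with the suffix -AS and a number. Some start at a promoter shared with the sense gene and some start inside it or beyond its end. Individual antisense RNAs are known to raise or lower the output of the sense gene, through chromatin, splicing, RNA stability or translation, while most have no described role. The genes described here are all those whose symbol in the platform annotation ends in -AS and a digit, which gave 480 of the 14884 named genes. Where a gene had several probe sets, the brightest over both arrays was used, and no expression value entered the choice of genes. RefSeq gives the biotype of 474 of them as long non-coding RNA and of the other 6 as antisense RNA.

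Expression was measured in SNK6, an established cell line from a human NK/T-cell lymphoma, kept in serum and interleukin-2. All cells received romidepsin, which blocks class I histone deacetylases, for 72 h, and 1 of the 2 cultures also received sildenafil, a phosphodiesterase inhibitor. Each group holds 1 array. The labels give no dose, and cultures without drug or with sildenafil alone were not analysed here. No value below therefore has a replicate error, no test between the treatments was possible, and a difference describes these 2 arrays, with culture, array and drug not told apart. Of 12 NK markers 6 were named and all 6 were past the signal filter, from GNLY at 3.82 and 3.92 to PRF1 at 8.83 and 8.81 (log2 signal without and with sildenafil). NCAM1, the NK surface marker CD56, was at 6.63 and 6.54. Of 6 T cell markers 3 were named (2.70 to 4.37), of 5 B cell markers 2 (5.05 to 5.23), of 4 monocyte markers 4 (2.17 to 4.30) and of 6 fibroblast and epithelial markers 4 (2.85 to 7.38), so markers of other types were not all at the floor.

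The signals are log2 values per probe set, and a difference is the value of the combination array less that of the romidepsin array. A gene counts as past the filter when at least 1 of its signals was 3.91 or more, the median over the whole table. Higher and lower here mean at least 1.5-fold apart (0.58 on the log2 scale), which is a rule of size and not a test. As a yardstick, each difference was set beside the central 95% of the differences of its 500 nearest named genes in mean signal and the gene itself. This local range is a spread between genes, in which drug, culture and array are mixed, and it does not measure noise. Sense cDNA was labelled, per the labels' protocols, which keeps the strand of a transcript. The strand that each probe reads is in none of the files or labels, so signal from the sense strand in a shared stretch was not tested.

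The promoter windows of 6 antisense genes on which the results turn are shown first. They are the brightest antisense gene (PCNA-AS1), a pair of genes higher with sildenafil (TNFRSF14-AS1, NCAM1-AS1) and 3 genes lower with it (DCST1-AS1, KIF9-AS1, URB1-AS1). Each window runs from 250 bases before to 50 bases after the annotated start, 5′ to 3′ on the gene's own strand, from RefSeq on GRCh38.p14. The windows lie at chr20:5119336-5119635, plus strand (PCNA-AS1), chr1:2556962-2557261, minus strand (TNFRSF14-AS1) and chr11:113273852-113274151, minus strand (NCAM1-AS1). Those of the lower genes lie at chr1:155063942-155064241, minus strand (DCST1-AS1, the outermost of 2 listed starts), chr3:47164120-47164419, plus strand (KIF9-AS1) and chr21:32392883-32393182, plus strand (URB1-AS1). Capitals mark matches, on either strand, to any of 4 short motifs. Of these, the TATA box is TATAAA, the CCAAT box is CCAAT, the GC box, a core that SP1 binds, is GGGCGG, and the ETS core, bound by ETS factors, is CCGGAA.
PCNA-AS1: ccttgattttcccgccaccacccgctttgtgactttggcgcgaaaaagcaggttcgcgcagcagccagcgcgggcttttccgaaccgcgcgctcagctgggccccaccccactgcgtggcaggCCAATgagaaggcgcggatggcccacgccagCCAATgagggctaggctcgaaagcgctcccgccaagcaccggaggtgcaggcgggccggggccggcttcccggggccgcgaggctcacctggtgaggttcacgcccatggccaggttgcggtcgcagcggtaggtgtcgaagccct
TNFRSF14-AS1: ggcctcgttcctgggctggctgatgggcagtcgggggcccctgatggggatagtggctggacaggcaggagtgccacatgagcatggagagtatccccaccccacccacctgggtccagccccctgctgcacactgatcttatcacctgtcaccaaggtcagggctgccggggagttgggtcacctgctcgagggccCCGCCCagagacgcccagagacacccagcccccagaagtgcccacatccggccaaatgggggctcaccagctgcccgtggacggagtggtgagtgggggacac
NCAM1-AS1: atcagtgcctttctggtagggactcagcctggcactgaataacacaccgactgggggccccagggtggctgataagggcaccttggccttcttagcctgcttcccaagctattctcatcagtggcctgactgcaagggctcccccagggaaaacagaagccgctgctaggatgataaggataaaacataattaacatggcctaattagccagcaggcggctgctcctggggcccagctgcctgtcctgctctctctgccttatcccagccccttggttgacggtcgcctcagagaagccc
DCST1-AS1: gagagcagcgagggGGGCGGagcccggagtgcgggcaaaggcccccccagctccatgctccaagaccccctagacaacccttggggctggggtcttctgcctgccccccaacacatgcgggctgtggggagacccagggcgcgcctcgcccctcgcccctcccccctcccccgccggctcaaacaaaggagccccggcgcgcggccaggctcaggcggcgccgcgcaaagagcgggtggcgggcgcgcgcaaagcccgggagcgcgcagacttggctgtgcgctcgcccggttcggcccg
KIF9-AS1: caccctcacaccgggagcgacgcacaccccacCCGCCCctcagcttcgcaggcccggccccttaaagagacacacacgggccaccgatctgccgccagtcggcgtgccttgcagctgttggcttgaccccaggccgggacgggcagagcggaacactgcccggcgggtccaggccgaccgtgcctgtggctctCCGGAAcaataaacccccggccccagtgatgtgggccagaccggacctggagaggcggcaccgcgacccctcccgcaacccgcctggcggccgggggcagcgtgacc
URB1-AS1: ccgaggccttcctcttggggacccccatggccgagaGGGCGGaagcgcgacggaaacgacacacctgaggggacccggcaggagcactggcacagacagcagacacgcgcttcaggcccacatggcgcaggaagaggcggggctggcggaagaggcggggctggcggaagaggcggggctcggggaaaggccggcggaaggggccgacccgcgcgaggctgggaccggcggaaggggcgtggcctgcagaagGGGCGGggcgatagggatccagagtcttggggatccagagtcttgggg
The window of PCNA-AS1 held 2 CCAAT boxes and 31 CpG dinucleotides. That of URB1-AS1 held 2 GC boxes and 28 CpG, and 220 of its 300 bases lie also in the window of URB1, read from the other strand. TNFRSF14-AS1 had 1 GC box and 9 CpG, DCST1-AS1 1 GC box and 32 CpG, and KIF9-AS1 1 GC box, 1 ETS core and 29 CpG. NCAM1-AS1 had none of the motifs and 5 CpG. GC boxes stood in the windows of both higher and lower genes. The 3 lower genes shown had 28 to 32 CpG. Over the 8 genes at least 1.5-fold apart that had a window, the median was 28.5. The windows shown are a choice and do not compare higher with lower genes in CpG. A match is a string of letters and not a measured binding site.

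Antisense genes were dim on both arrays. Of the 480, 233 were past the filter (48.5%) and 247 were not, against 10081 of 14884 named genes (67.7%). Their median signal was 3.66 on the romidepsin array and 3.80 on the combination array, and their highest signals were 8.01 and 8.43. The named sense genes, 303 in number, had medians of 4.74 and 4.73, close to the 4.68 and 4.72 of all named genes. A log2 signal of 6 was reached by 28 antisense genes (5.83%) on the romidepsin array and 30 (6.25%) on the combination array, against 90 (29.7%) and 91 (30.0%) of the sense genes. Probe sets differ in how strongly they respond, so these signals place the genes on the arrays' own scale and do not give numbers of molecules.

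**Figure D1:**
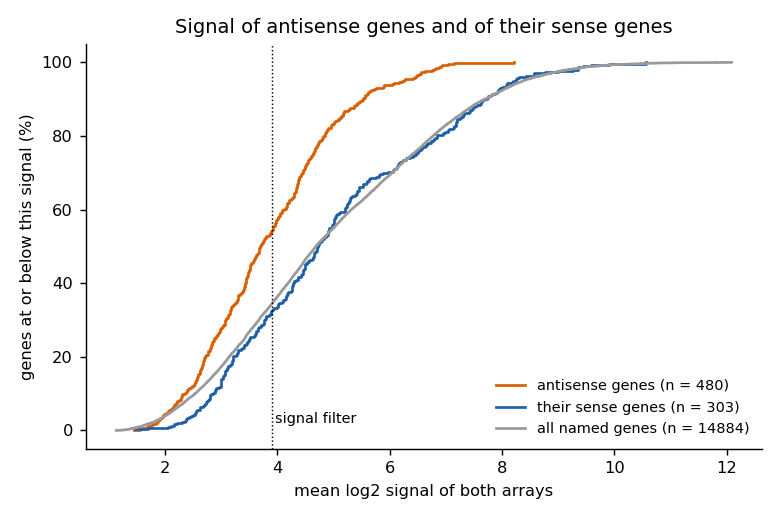
Cumulative share of genes (y axis, %) at or below a mean log2 signal of both arrays (x axis) for 480 antisense genes, their 303 named sense genes and all 14884 named genes, with the filter at 3.91 as a dotted line. The antisense curve lies to the left of the others, which nearly coincide.

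The antisense genes as a group did not lean to either side, and 9 of them were at least 1.5-fold apart. Of the 233 past the filter, 116 were above 0, 115 below 0 and 2 at 0, with a median difference of 0.00. All 10081 named genes past the filter had a median of -0.01. These medians are not at like signal. Below a mean signal of 4.5 the median was 0.01 for antisense and 0.07 for named genes. From 4.5 to 5.5 the medians were 0.06 and 0.02, and at 5.5 and above -0.06 and -0.03. The central 95% of the antisense differences ran from -0.51 to 0.54, against -0.44 to 0.47 for all named genes. The 9 genes apart (3.86%) were 5 higher and 4 lower, where 1.99% of all named genes were apart, 1.02% higher and 0.972% lower. None of the 9 reached 2-fold. Of the 247 antisense genes not past the filter, 3 were at least 1.5-fold higher and none lower. No such count was made for all named genes not past the filter, so the 3 are not read as a lean. Among named genes past it with a mean signal below 4.5, 68 were higher and 44 lower.

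The count of 9 rests on dim genes. In 7 of the 9, 1 array lay below the filter, so these genes passed only through the array on which they were brighter. TNFRSF14-AS1 and URB1-AS1 were the 2 with both arrays past it. Among the 205 antisense genes with both arrays past the filter those 2 are 0.976%, and 106 of 9443 named genes (1.12%) were apart in the same way. Below a mean signal of 4.5, 7 of 98 antisense genes (7.14%) and 112 of 2109 named genes (5.31%) were at least 1.5-fold apart. Between 4.5 and 5.5 the counts were 2 of 85 (2.35%) and 58 of 2360 (2.46%). At 5.5 and above they were 0 of 50 and 31 of 5612 (0.552%). Within each of these ranges the antisense genes thus lay near the share of all named genes. The lowest and the highest range are open, so they match signal only roughly.

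**Figure D2:**
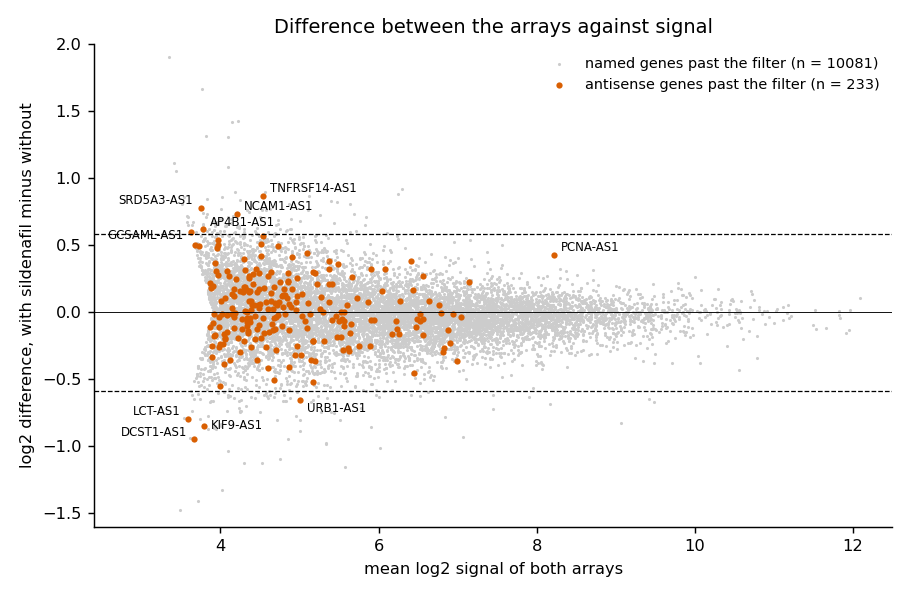
Log2 difference, with sildenafil minus without (y axis), against the mean log2 signal of both arrays (x axis) for 233 antisense genes (orange) and 10081 named genes (grey) past the filter, with dashed lines at 1.5-fold. The 9 antisense genes beyond the lines lie at mean signals of 3.59 to 5.01, and PCNA-AS1 stands apart at 8.22.

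The largest increase was in TNFRSF14-AS1. Its signal was 4.11 without and 4.97 with sildenafil, 1.83-fold higher, and genes of like signal had a central range of -0.46 to 0.55. TNFRSF14 itself, the HVEM receptor for LIGHT and BTLA, was not named on the array. SRD5A3-AS1, beside the polyprenol reductase gene of dolichol synthesis, was at 3.36 and 4.14 (1.72-fold higher). NCAM1-AS1 was at 3.84 and 4.57 (1.66-fold higher, local range -0.45 to 0.58). Its sense gene NCAM1, with 6.63 and 6.54, differed by -0.09, so the antisense signal was higher while that of CD56 was nearly equal. AP4B1-AS1, beside a subunit gene of the AP-4 vesicle adaptor, was at 3.47 and 4.08 (1.53-fold higher). GCSAML-AS1 was at 3.33 and 3.92 (1.51-fold higher), the gene closest to the limit. The sense genes of SRD5A3-AS1, AP4B1-AS1 and GCSAML-AS1 were not named. All 9 genes apart lay outside their local range. The rule of size is about as wide as that range at such signal, so this adds no support.

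The 4 lower genes all had a named sense gene. DCST1-AS1 was at 4.14 without and 3.19 with sildenafil (1.93-fold lower, difference -0.95), while DCST1 was at 4.01 and 4.29 (0.27). The gap between their differences, -1.22, was the widest of all pairs. KIF9-AS1 was at 4.21 and 3.37 (1.80-fold lower), and KIF9, which encodes a kinesin motor of cilia, was at 3.94 and 3.59 (-0.35). Both genes of this pair were below 0, and both passed the filter only through the romidepsin array, on which they were brighter. LCT-AS1 was at 3.98 and 3.19 (1.74-fold lower), and LCT, the lactase gene, at 4.44 and 4.47 (0.03). URB1-AS1 was at 5.33 and 4.68 (1.57-fold lower, local range -0.51 to 0.50), and URB1, a factor of large ribosomal subunit assembly, at 6.67 and 6.62 (-0.04). URB1-AS1 and URB1 run away from each other from starts that lie within 1000 bases.

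**Figure D3:**
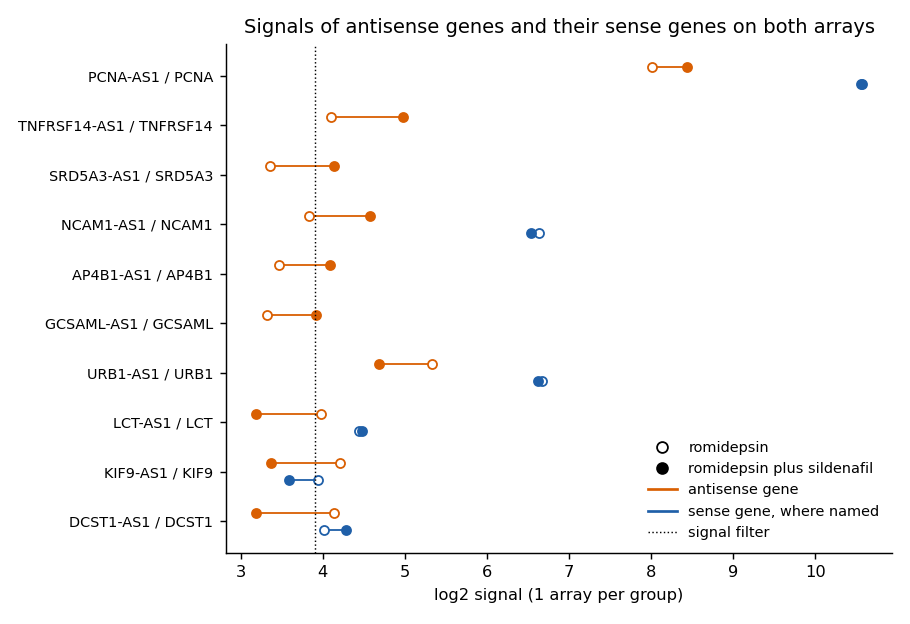
Log2 signal (x axis) without (open) and with sildenafil (filled) for the 9 antisense genes at least 1.5-fold apart and for PCNA-AS1 (orange), above the sense gene where it is named (blue), with the filter as a dotted line. The antisense dots are spread apart while those of NCAM1, URB1, LCT and PCNA nearly coincide, and 7 of the orange lines begin or end left of the filter.

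Among bright antisense genes, differences were smaller in fold, and a few lay outside the range of genes of like signal. Of those given with that range below, PCNA-AS1 stood well outside it. USP30-AS1 and SLC8A1-AS1 lay just past its edge. Of the 50 antisense genes with a mean signal of 5.5 or more, 6 (12%) lay outside the central range of genes of like signal, 4 higher and 2 lower. Of all 5612 named genes of that signal 5.19% did, and of all named genes past the filter 5.56%, against 19 of 233 antisense genes (8.15%). The brightest, PCNA-AS1, was at 8.01 without and 8.43 with sildenafil, a difference of 0.43 (1.34-fold) against a local range of -0.32 to 0.18. Its sense gene PCNA, the sliding clamp of DNA replication, was at 10.55 and 10.57 (0.02), so the overlapping genes did not differ alike. USP30-AS1 was at 7.03 and 7.26 (0.23, local range -0.32 to 0.22), and USP30, a mitochondrial deubiquitinase gene, at 5.65 and 5.39 (-0.27). SLC8A1-AS1 was at 7.18 and 6.81 (-0.36, local range -0.33 to 0.23), and the exchanger gene SLC8A1 was not named. The other 3 of the 6, named after their values were seen, were PSMD6-AS2 (6.68 and 6.22), PCBP3-AS1 (6.22 and 6.60) and STEAP1B-AS1 (5.92 and 6.24).

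The remaining genes of the 10 brightest stayed inside the local range. TMPO-AS1 was at 7.05 and 7.02, and TMPO, a nuclear lamina protein gene whose start lies within 1000 bases, at 8.63 and 8.51. PSMA3-AS1 was at 6.95 and 6.93, FGD5-AS1 at 6.79 and 6.79 and PITPNA-AS1 at 7.02 and 6.79, with the sense genes not named. THAP9-AS1 was at 6.97 and 6.67 (-0.30) and THAP9, a gene derived from a DNA transposase, at 4.63 and 4.22 (-0.40), so both were lower. C2CD4D-AS1 was at 6.97 and 6.70 (-0.27), while C2CD4D was at 4.78 and 5.05 (0.27). EPB41L4A-AS1 was at 6.95 and 6.82, and EPB41L4A was at 2.36 and 2.58 and not past the filter. In EPB41L4A-AS1, THAP9-AS1, C2CD4D-AS1 and USP30-AS1 the antisense probe set was the brighter of the pair.

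Antisense and sense genes were then compared pair by pair. A sense gene was named for 315 antisense genes (303 sense genes, since some have several), and not for 165. In 134 pairs both genes were past the filter, in 24 only the antisense gene, in 85 only the sense gene and in 72 neither. The sense probe set was the brighter in 232 of the 315 pairs. Across the 315 pairs the mean signals correlated with r = 0.40 (Spearman 0.41), and across the 134 with r = 0.18 (Spearman 0.12). All points come from the same 2 arrays, so these describe the pairs and carry no test.

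The sense genes differed less than their antisense partners. Of 211 sense genes past the filter none was 1.5-fold apart (0 higher, 0 lower), where 1.99% of all named genes were and 9 of 233 antisense genes. Their differences ran from -0.57 to 0.53 with a median of -0.01. The extremes were SH3PXD2A, a scaffold gene of invasive adhesions, at -0.57 (4.55 and 3.98) and WWTR1, which encodes the Hippo pathway coactivator TAZ, at 0.53 (3.92 and 4.45). At mean signals from 4.5 to 5.5 the SD of differences was 0.17 over 63 sense genes, 0.26 over 85 antisense genes and 0.25 over 2360 named genes. At 5.5 and above it was 0.12 over 103 sense genes, 0.20 over 50 antisense genes and 0.16 over 5612 named genes. From 4.5 to 5.5 the antisense genes thus scattered more than their sense genes and about as much as all named genes, as a description of these arrays. The range at 5.5 and above is open and does not compare like signal. Sense genes reached 10.57 on the combination array and antisense genes 8.43.

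The direction of an antisense gene said little about that of its sense gene. Of the 134 pairs, 73 (54.5%) lay on the same side of 0, 28 with both higher and 45 with both lower. In 35 the antisense gene was above 0 and the sense gene below, in 25 the reverse, and in 1 the antisense gene was at 0. The differences correlated with r = 0.02 (Spearman 0.06). The gap between the differences of a pair had an SD of 0.31 and reached 0.58 in 8 pairs. After DCST1-AS1 the widest gaps were those of LCT-AS1 (-0.83), NCAM1-AS1 (0.83), ARRDC3-AS1 (0.65), CCNT2-AS1 (0.64) and URB1-AS1 (-0.61). ARRDC3-AS1 was at 3.72 and 4.20, and ARRDC3, an arrestin-domain adaptor gene, at 6.38 and 6.20 (-0.18). CCNT2-AS1 was at 3.70 and 4.24, and CCNT2, the cyclin T2 partner of the elongation kinase CDK9, at 6.87 and 6.77. In both, the antisense gene was the dim member and was the higher with sildenafil, and neither reached 1.5-fold. Of the antisense genes with these widest gaps, only URB1-AS1 had both arrays past the filter. The others passed it only through the array on which they were brighter.

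The pairs were then grouped by position. RefSeq gave the strand of both genes for 325 antisense genes. Of these, 275 overlap the sense gene on the opposite strand, 37 start head to head with it without overlap and within 1000 bases, and 13 lie otherwise on the opposite strand. The head-to-head genes were past the filter in 22 of 37 cases (59.5%), with a median mean signal of 4.31, and the overlapping ones in 130 of 275 (47.3%), with 3.66. Of the 9 genes apart, 5 overlap the sense gene, 1 (URB1-AS1) is head to head, and for 3 the strand of a member of the pair was not matched. When pairs were grouped by the distance of the starts, overlapping or not, those within 1000 bases lay on the same side of 0 in 19 of 27 cases (70.4%, r = 0.25, Spearman 0.17). Pairs with starts farther apart did so in 32 of 64 (50%, r = -0.05, Spearman -0.05). The grouping by distance was chosen after the data were seen, and the difference between the groups was not tested. The head-to-head class without overlap had 8 of 13 on the same side (r = -0.17).

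**Figure D4:**
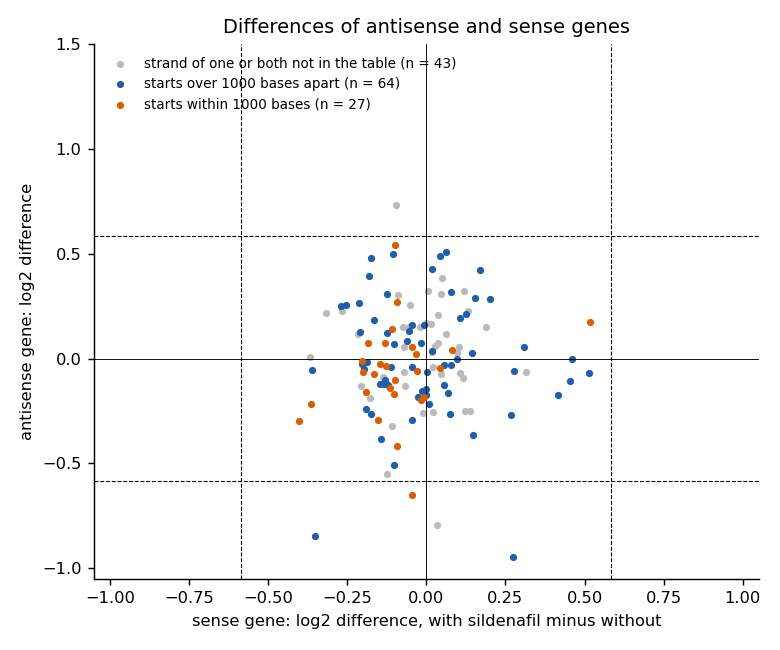
Log2 difference (with sildenafil minus without) of the antisense gene (y axis) against that of its sense gene (x axis) for 134 pairs past the filter, coloured by the distance between their starts, with dashed lines at 1.5-fold. No point passes the vertical dashed lines, 5 pass the horizontal ones, and the cloud has no slope (r = 0.02).

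Of the pairs with close starts, THAP9-AS1 and THAP9 and ZNF436-AS1 and ZNF436 were the clearest with a common direction. ZNF436-AS1 was at 4.40 and 4.19 (-0.21) and ZNF436, a zinc finger gene, at 5.21 and 4.85 (-0.36). LBX2-AS1 was at 4.39 and 4.57 (0.17) and LBX2, a homeobox gene, at 3.59 and 4.11 (0.52), so both were above 0. LBX2 passed the filter only through the combination array, on which it was brighter. CCNT2-AS1 and ZNF407-AS1 went the other way, at 0.54 and 0.27 where their sense genes were at -0.10 and -0.09. These pairs were picked from the 27 after their values were seen, apart from CCNT2-AS1, ZNF436-AS1 and ZNF407-AS1, which the rule for named genes also gave.

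Promoter windows were found for 369 of the 480 antisense genes, and those of genes past the filter were richer in CpG. The 185 past the filter had a median of 22 CpG in 300 bases and the 184 not past it 8, where 27305 RefSeq genes with a window had 13. With fewer than 5 CpG, 30 of 100 antisense genes were past the filter (30.0%). With 5 to 14 it was 37 of 77 (48.1%), and with 15 or more 118 of 192 (61.5%). Across the 369, CpG and mean signal correlated with r = 0.32 (Spearman 0.34). The median difference between the arrays was -0.01 in each of the 3 CpG classes. A TATA box was in 4.86% of the windows past the filter and 13.6% of those not past it, against 12% of all windows. A GC box was in 52.4% and 31.5%, against 44.5% of all. A CCAAT box was in 33.5% and 37.0%, against 35.7% of all, and an ETS core in 18.9% and 10.9%, against 17.6%. Of the 8 genes at least 1.5-fold apart that had a window, 7 held a GC box and none a CCAAT or TATA box. These 8 are few and were picked by their difference, and a link between GC boxes and the difference was not tested. The windows of 40 antisense genes share bases with that of the sense gene, a median of 191 bases, and 21 of these genes were past the filter (52.5%).

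The antisense genes with sense genes of known function were grouped by that function. Of 17 beside immune genes 12 were past the filter, with a median of 0.03 (7 above and 5 below 0), and 1, TNFRSF14-AS1, was at least 1.5-fold apart. The list holds ARRDC3-AS1 and USP30-AS1, whose sense genes are not known chiefly for immune roles, and without them 5 were above and 5 below 0 (median -0.03). ARRDC3-AS1 was at 0.48 and CD27-AS1 at -0.37. CD27-AS1 was at 5.37 and 5.01, and CD27, a costimulatory receptor gene, at 4.01 and 4.15. MAP3K14-AS1 was at 5.53 and 5.79, while MAP3K14, the NIK kinase gene of non-canonical NF-kappaB signalling, was at 6.63 and 6.42, so this pair differed in opposite directions. PRKCQ-AS1 (-0.12), TRAF3IP2-AS1 (-0.32), PSMB8-AS1 (-0.06), FAS-AS1 (0.00) and HLA-F-AS1 (0.08) were below 1.5-fold. GATA3-AS1, ITGB2-AS1 and LEF1-AS1 were among the 5 not past the filter, with GATA3-AS1 at 3.09 and 3.16 beside GATA3, a lymphocyte transcription factor gene, at 7.31 and 7.30.

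Of 11 beside genes of the cell cycle and genome upkeep 9 were past the filter, with a median of -0.07 (3 above and 6 below 0). Without TIPARP-AS1, beside a gene for an ADP-ribosyltransferase, 3 were above and 5 below 0. Other sense genes with another described function stay in this list, namely KIF9 (cilia), CCNT2 (transcription elongation) and MCM3AP (mRNA export). KIF9-AS1 and CCNT2-AS1 had the largest differences of the list, so its median and counts do not describe cell cycle genes alone. KIF9-AS1 was 1.5-fold apart, CCNT2-AS1 was at 0.54 and PCNA-AS1 at 0.43. DDX11-AS1, beside a DNA helicase gene of chromatid cohesion that was not named, was at 5.74 and 6.07. MCM3AP-AS1 was at 5.27 and 5.06, and MCM3AP, an mRNA export factor gene, at 6.66 and 6.67. CDKN2B-AS1, the antisense RNA of the INK4 locus known as ANRIL, was at 3.48 and 3.56, not past the filter. Of 12 beside genes of chromatin, transcription and RNA 9 were past it, with a median of -0.03 (4 above, 5 below), none apart. The 12 include SNAP25-AS1, not past the filter, whose sense gene is not known for such a role. RBM26-AS1 was at -0.29, KMT2E-AS1 at 0.29 and THUMPD3-AS1 at -0.17.

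Among the 8 function lists, antisense genes of developmental transcription factors were the group most often above 0. Of 20, 10 were past the filter, 8 above and 2 below 0, with a median of 0.14 and none 1.5-fold apart. Of all 10081 named genes past the filter, 4757 were above 0 and 5282 below. Named genes below a mean signal of 4.5 had a median of 0.07. HOXA-AS3 was at 3.49 and 3.98 (0.49), LHX4-AS1 at 6.43 and 6.70 (0.27) and ZEB1-AS1 at 4.83 and 5.09 (0.26). HOXA-AS3 passed the filter only through the combination array. ZEB1, a repressor of epithelial genes, was at 7.46 and 7.20 (-0.25), opposite to ZEB1-AS1. ZEB2-AS1 was not past the filter, at 2.93 and 2.91, beside ZEB2 at 5.14 and 5.41. The zinc finger group had 8 of 17 past the filter and a median of -0.01 (3 above, 4 below, 1 at 0), with ZNF205-AS1 at 0.31, ZNF407-AS1 at 0.27 and ZNF436-AS1 at -0.21.

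Beside solute carriers, channels and pumps 8 of 20 were past the filter (median 0.04, 5 above and 3 below), with SLC25A25-AS1 at 0.41, SLC8A1-AS1 at -0.36 and SLC25A5-AS1 at -0.36. Beside kinases and phosphatases 5 of 12 were (median -0.12, 2 above and 3 below), with WEE2-AS1 at -0.28, MAP3K14-AS1 at 0.26 and PIK3CD-AS1 at -0.19. Beside genes of the centrosome, cilium and cytoskeleton 6 of 12 were (median -0.24, 1 above and 5 below), with KIF9-AS1 at -0.85, DNAH8-AS1 at -0.33 and WDR86-AS1 at -0.29. STARD4-AS1 (-0.18) and STARD7-AS1 (-0.04) stand in this list although STARD4 and STARD7 encode lipid transfer proteins, and without them 1 was above and 3 below 0 (median -0.31). The lists without those genes were formed after the data were seen. Under median centring, quantile normalization and lowess centring the group of developmental factors kept 8 above and 2 below 0, and the sign of no median of these 8 lists changed. Without ARRDC3-AS1 and USP30-AS1 the immune median was 0.01 under quantile normalization. No group was tested.

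**Figure D5:**
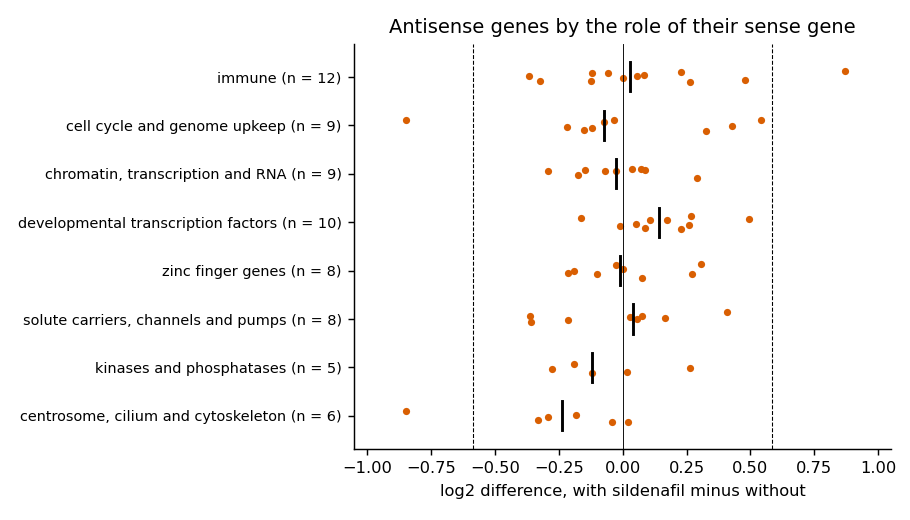
Log2 difference, with sildenafil minus without (x axis), of each antisense gene past the filter (point), grouped by the function of its sense gene (y axis), with the group median as a bar and dashed lines at 1.5-fold. Medians lie between -0.24 and 0.14, and 1 or no point per group passes a dashed line (KIF9-AS1 stands in both groups to which it belongs).

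Of 36 antisense RNAs on a list of described ones, 23 were past the filter, with a median of -0.03 (9 above and 14 below 0, but 12 above and 11 below under quantile normalization), and TNFRSF14-AS1 was the 1 gene at least 1.5-fold apart. Besides those given above, FOXD2-AS1 was at 6.33 and 6.17, HIF1A-AS2 at 5.72 and 5.56, LOXL1-AS1 at 4.27 and 4.55, MNX1-AS1 at 4.82 and 4.81, RBM5-AS1 at 4.77 and 4.81 and VPS9D1-AS1 at 4.56 and 4.51. PDCD4-AS1 was at 6.58 and 6.53 (-0.05), while PDCD4, an inhibitor of translation initiation, was at 9.53 and 9.17 (-0.36). The 13 not past the filter had both arrays below 3.91. Besides the 5 already named, they were AFAP1-AS1, DLX6-AS1, DSCAM-AS1, HAND2-AS1, MAGI2-AS2, MAGI2-AS3, MAPT-AS1 and SBF2-AS1.

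Several sense genes have more than 1 antisense gene on the array, 16 with 34 antisense genes in all. In 1 of them, BABAM2, a subunit gene of BRCA1 complexes, were both antisense genes past the filter. BABAM2-AS1 was at 4.17 and 4.32 and BABAM2-AS2 at 4.24 and 4.49, so both were above 0, while BABAM2 was at 8.10 and 8.05. In COL18A1, DIAPH3, DLGAP1, FOXN3, FRMD6 and ZNF503 1 antisense gene was past the filter. DIAPH3-AS1 was at 3.78 and 3.97 and DIAPH3-AS2 at 3.43 and 2.88, on opposite sides of 0. FRMD6-AS1 was at 5.60 and 5.53 (-0.07), whereas FRMD6 was among the higher sense genes, at 4.67 and 5.18 (0.51). In the other 9 sense genes no antisense gene was past the filter.

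Other long non-coding RNA classes were counted in the same way, and their medians lay between -0.22 and 0.15. Of 99 divergent transcripts (suffix -DT) 61 were past the filter, with a median of -0.08 (23 above and 38 below 0) and 4 at least 1.5-fold apart (6.56%), where 1.99% of all named genes past the filter were. With both arrays past the filter it was 1 of 54. The 4 were BTG2-DT and RB1-DT, lower, and EOLA1-DT and FAM86B2-DT, higher. Of 458 genes with a LINC symbol 160 were past it, with a median of -0.02 and 7 apart (4.38%), 4 higher and 3 lower, or 2 of 131 with both arrays past the filter. Among dim named genes, below a mean signal of 4.5, the share was 5.31%. The brightest of the 7 was LINC00467, at 6.14 and 5.55. The 8 of 9 small nucleolar RNA host genes past the filter had a median of -0.13, 2 above and 6 below 0, and none was apart. The 13 of 29 intronic transcripts had a median of 0.15 with 1 apart, DIP2A-IT1. The 5 of 9 antisense genes without a digit in the suffix had a median of -0.22, with none apart.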

How the data were processed

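The authors' deposited table holds log2 signals of 53617 probe sets, 1 column per array. Log base 2 was inferred from the range (up to 13.05). Total RNA was amplified with a whole-transcript kit and sense cDNA labelled with biotin, per the labels' protocols; how signals were summarised and normalized is not given in the sources used here. Sorted by size, both columns differed by at most 0.15, so a change shared by most transcripts would be lost. The second drug in 1 title was read as sildenafil, the only other drug the treatment protocol names. The platform annotation gave 16098 probe sets 1 symbol and the other 37519 none. Symbols ending in -AS and digits gave 511 probe sets of 480 genes. The sense gene is the symbol before that suffix. All 480 matched RefSeq by gene ID; strands came from its promoter table.

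Genes were named by rule: those 1.5-fold apart, the 10 brightest, a list of described antisense RNAs, the 6 widest pair gaps, sense genes apart, 3 per function list, and families with several antisense genes. Genes and lists were chosen with earlier results of these data known. Alternatives changed the filter, scaling, probe sets, rule of size and pair filter. Scripts were tested on simulated data. Tables were handled in pandas 2.3.3 and numpy 2.4.6, lowess came from statsmodels 0.14.6 and rank correlations from scipy 1.17.1, under Python 3.11.15. The number of arrays limits the precision.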

Additional observations from a re-analysis of the deposited data

How the results depend on the processing

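Of 735 values of 92 named genes under the 9 of 12 alternatives that give such values, 733 kept their side of the rule of size. That count was largely fixed in advance. A change of filter leaves the difference of a gene as it is, and so do the probe set settings for a gene with 1 probe set. Only the scalings could move most values, and a gene that a filter removed gave no value. GCSAML-AS1 under quantile normalization and AP4B1-AS1 under lowess centring, both at 0.57, fell short of 1.5-fold. None of the 9 genes apart changed sign, but 14 values of 9 other genes, all with differences within 0.053 of 0, lay on the other side of 0. These were FGD5-AS1, PSMA3-AS1, TMPO-AS1, FAS-AS1, PDCD4-AS1 (0.21 with the mean of all probe sets), THUMPD3, URB1, BABAM2 and LCT. The count of antisense genes apart followed the filter and the rule itself. Without a filter 8 were higher. With the filter on the mean of both arrays 3 were apart (2 higher, 1 lower), and with a brighter array of at least 5 only 1 (0 higher, 1 lower), with a median difference of -0.048. With both arrays past the filter, chosen after the data were seen, 2 were apart (1 higher, 1 lower). At 2-fold it was 0, and under the looser rule of size 40 (23 higher, 17 lower). Lowess centring left 3 higher. Of the sense genes, 4 were apart without a filter, 1 under quantile normalization and 1 under lowess centring. For divergent transcripts the count was 0 with a brighter array of at least 5 and 1 with both arrays past the filter. For LINC genes it was 15 without a filter, 3 with the filter on the mean, 1 with a brighter array of at least 5 and 2 with both arrays past the filter. Apart from the 2-fold rule and both arrays past the filter, the share of all named genes was not computed under these alternatives. The other counts therefore have no background to be read against. The share of pairs with close starts on the same side of 0 was 87.5% of 8 pairs with a brighter array of at least 5 and 56.1% of 57 without a filter, and it was 63.0% under quantile normalization, lowess centring and the mean of all probe sets. The cause of these shifts was not tested, beyond the fewer genes that a stricter filter leaves. No paired analysis was possible because each group holds 1 array and the labels carry no replicate numbers. Signal near the floor and single arrays limit all values.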

Other observations

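Of the 24 antisense genes with more than 1 probe set, 6 had at least 2 past the filter. PSMB8-AS1 and HLA-F-AS1 have probe sets with identical values, which are not separate measurements, and counted once they leave 5 genes. In 1 of the 5, PRR34-AS1, all such probe sets lay on the same side of 0. The differences within a gene were apart by a median of 0.11 and by up to 0.61, in ERCC6L2-AS1 (-0.26 and 0.35). All 9 genes at least 1.5-fold apart rest on 1 probe set each. TRG-AS1, at the T cell receptor gamma locus, was at 4.88 without and 5.32 with sildenafil (0.44). It was named after its value was seen, and its difference lies inside the range of -0.50 to 0.49 of genes of like signal.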
